A study of Mus musculus with 14 samples.

Results

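The 10 genes described here encode transcription factors of the medium spiny neurons, the projection neurons that make up most of the striatum: Bcl11b, Foxp1, Foxp2, Meis2, Rarb, Isl1, Ebf1, Sp9, Tshz1 and Zfp503. They were taken by symbol from the 8 single-cell count tables of mouse nucleus accumbens, where all 10 were found among 20856 gene symbols kept. Male C57BL/6 mice had received morphine sulfate or saline, called mock in the labels, by injection into the peritoneum. Each group held 4 pools of 2 mice, and the labels give no dose and no time of collection. In both groups pools 1 and 2 came from younger mice, of 42 to 45 days and 37 to 42 days, and pools 3 and 4 from older ones, of 78 to 82 days and 78 days. The labels name no transgene or other allele in any group. Each pool was made into 1 Drop-seq library, in which a droplet joins a cell with a barcoded bead and each captured transcript carries a unique molecular identifier (UMI).

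Medium spiny neurons arise from the lateral ganglionic eminence and divide into a D1 type, which carries dopamine receptor D1, and a D2 type, which carries dopamine receptor D2. In mouse development Bcl11b, Foxp1, Meis2 and Rarb act in both types, Isl1 and Ebf1 in the D1 lineage, and Sp9 in the D2 lineage. Foxp2 and Tshz1 mark subsets of D1 neurons, and patch (striosome) neurons and the matrix around them form a further division of the striatum.

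After removal of barcodes with under 300 genes or over 20% mitochondrial UMIs, 33225 of 36000 barcodes were kept, with a median of 2171 UMIs each. Cells were sorted into types by marker genes, none of which is a member, so that the members' levels were not used to place a cell. D1 neurons numbered 3620 and D2 neurons 3195. The gate genes themselves stood as the names say, as they must: the D2 gate held 319 CPM of Adora2a, against 6.59 CPM in the D1 gate, and the D1 gate held 2854 CPM of Tac1, against 117 CPM in the D2 gate, where CPM is UMIs per 1000000 UMIs of the sum. All pools held both types, with 170 to 668 D2 cells and 179 to 786 D1 cells a pool. Between pools 47 of 35944 distinct barcodes were shared. Mitochondrial UMIs set the groups apart: their median share in D2 cells was 4.12% to 5.38% in morphine pools, against 2.90% to 3.61% in mock pools, and in D1 cells 3.98% to 5.09% in morphine pools, against 2.81% to 3.56% in mock pools. Whether this bears on any value below was not tested.

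RefSeq promoter windows, 250 bases before to 50 after a start site on GRCm38.p6, were matched for 8 of the 10 members. The 4 shown belong to the 3 genes that differed most between D2 and D1 neurons and to Rarb, the retinoic acid receptor beta. The Isl1 window (chr13:116309639-116309938, minus strand) and the Sp9 window (chr2:73271676-73271975, plus strand) have the CCAAT box or its complement ATTGG in capitals, found 2 times in each and in 37.4% of 32851 promoters on either strand. The Ebf1 window of the first of 2 start sites (chr11:44617850-44618149, plus strand) has the complement of the forkhead core GTAAAC in capitals, a motif held by 7.89% of promoters. The Rarb window (chr14:16575427-16575726, minus strand) has in capitals the direct repeat of GTTCA with 6 bases between its copies, the core letters of a retinoic acid response element, which 0.0761% of promoters hold, 25 in all. Its match begins 52 bases before the start site. Motifs were sought on both strands, 1 motif is marked in each window, and a match describes letters, not a bound site.
Isl1: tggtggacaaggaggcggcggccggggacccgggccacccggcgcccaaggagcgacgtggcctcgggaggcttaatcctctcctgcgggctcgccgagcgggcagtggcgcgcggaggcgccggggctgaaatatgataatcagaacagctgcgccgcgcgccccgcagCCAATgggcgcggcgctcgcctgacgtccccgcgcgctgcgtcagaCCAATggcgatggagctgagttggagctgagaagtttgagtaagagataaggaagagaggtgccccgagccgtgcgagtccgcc
Sp9: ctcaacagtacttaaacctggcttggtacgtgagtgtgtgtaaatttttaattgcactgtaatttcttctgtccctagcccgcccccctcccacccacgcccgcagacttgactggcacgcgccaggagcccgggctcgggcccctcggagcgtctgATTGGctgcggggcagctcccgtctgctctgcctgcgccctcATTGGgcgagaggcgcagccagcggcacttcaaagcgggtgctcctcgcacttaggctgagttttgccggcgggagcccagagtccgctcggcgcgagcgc
Ebf1: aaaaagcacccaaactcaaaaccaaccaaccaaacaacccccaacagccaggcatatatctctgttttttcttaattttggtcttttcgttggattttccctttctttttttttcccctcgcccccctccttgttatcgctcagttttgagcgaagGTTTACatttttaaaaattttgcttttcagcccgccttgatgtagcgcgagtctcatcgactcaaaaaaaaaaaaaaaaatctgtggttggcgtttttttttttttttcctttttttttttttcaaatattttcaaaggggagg
Rarb: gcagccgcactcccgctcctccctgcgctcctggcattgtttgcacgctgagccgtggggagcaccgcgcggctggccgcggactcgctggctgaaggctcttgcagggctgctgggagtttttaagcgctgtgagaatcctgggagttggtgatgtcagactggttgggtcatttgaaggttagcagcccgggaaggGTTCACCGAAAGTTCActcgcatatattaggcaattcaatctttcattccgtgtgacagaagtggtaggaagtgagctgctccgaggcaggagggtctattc

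Across 18 gated cell types, 5 of the 10 members had their highest mean level in D2 or D1 neurons. This count is a description, with no share over all genes set beside it. Foxp1, a forkhead factor, averaged 1203 ± 200 CPM in D2 and 980 ± 147 CPM in D1 neurons (SD, n = 8 pools here and for every level over both groups). Bcl11b, a zinc finger factor needed for striatal neurons to mature, averaged 786 ± 133 CPM in D2 and 754 ± 114 CPM in D1 neurons. Rarb averaged 162 ± 9.80 CPM in D2 and 155 ± 22.1 CPM in D1 neurons. For Bcl11b and Rarb the D2 and D1 levels lay within each other's spread. The next type after D2 and D1 stood lower for all 3 and was the Sst- and Npy-gated interneurons for Rarb, at 103 CPM, neuroblasts for Bcl11b, at 290 CPM, and endothelial cells for Foxp1, at 492 CPM. Zfp503, a zinc finger corepressor, averaged 42.8 ± 9.31 CPM in D2 and 55.5 ± 13.5 CPM in D1 neurons, where it was highest. Foxp2, another forkhead factor, was also highest in D1 neurons, at 273 ± 65.8 CPM, within the spread of the 201 ± 89.4 CPM of neuroblasts.

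The other 5 members peaked in another type. Meis2, a homeodomain factor, was highest in neuroblasts at 1568 CPM, followed by D2 neurons at 1147 ± 134 CPM and D1 neurons at 1026 ± 125 CPM. Sp9, a zinc finger factor of the Sp family, and Tshz1, a teashirt zinc finger factor, were also highest in neuroblasts, at 289 CPM and 255 CPM. Sp9 came next in the Sst- and Npy-gated interneurons, at 101 CPM, and the Pthlh-, Kit- and Pvalb-gated ones, at 82.5 CPM, then in dividing progenitors and D2 neurons, at 76.0 CPM and 73.9 ± 12.9 CPM. Tshz1 averaged 66.8 ± 13.2 CPM in D2 and 79.1 ± 9.61 CPM in D1 neurons. Isl1, a LIM homeodomain factor, was highest in the Chat- and Slc5a7-gated cells, at 366 CPM over the 2 pools with at least 10 such cells, ahead of 88.6 ± 11.6 CPM in D1 neurons. Ebf1, a helix-loop-helix factor, stood at 266 CPM in mural and 125 CPM in endothelial cells of the vessel wall, above the 53.7 ± 18.6 CPM of D1 neurons.

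**Figure D1:**
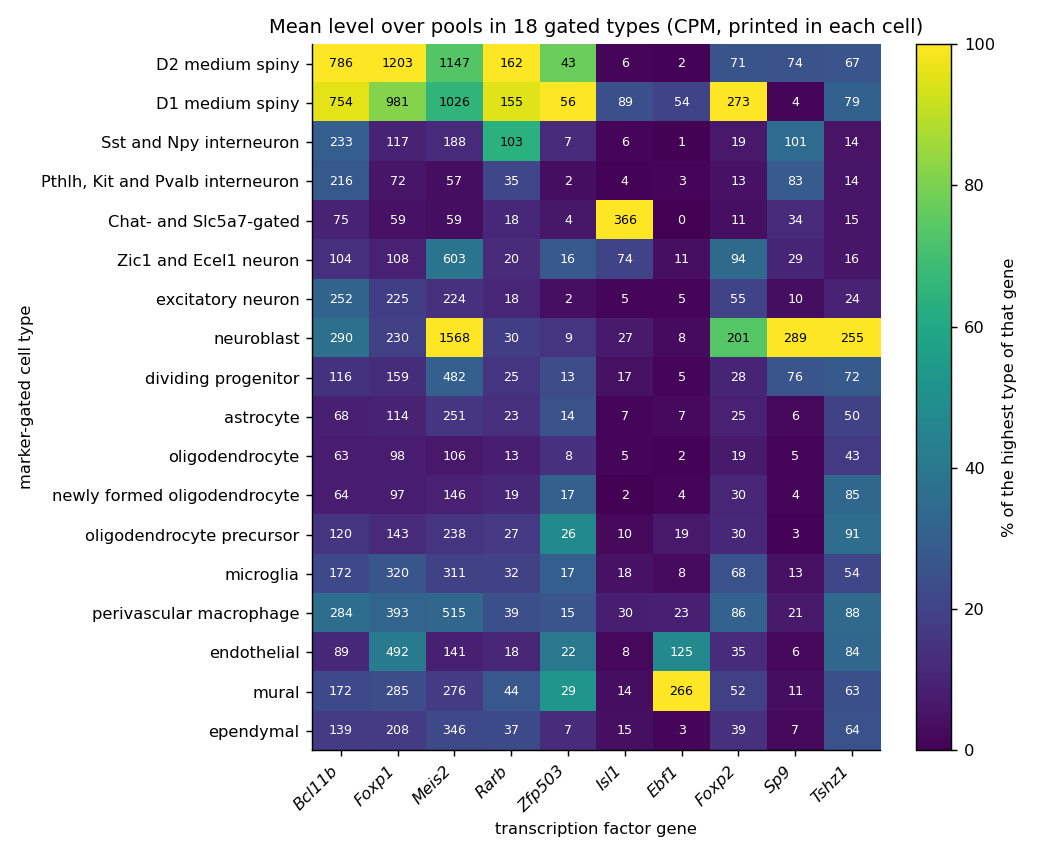
Mean level over pools (CPM, printed in each box) of the 10 members across 18 marker-gated types, D2 and D1 neurons on top. Colour gives the share of that gene's highest type. Bcl11b, Foxp1 and Rarb are bright in both medium spiny types, Isl1 and Ebf1 are brightest in Chat- and Slc5a7-gated and mural cells, and Meis2, Sp9 and Tshz1 in neuroblasts.

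Free RNA sets a floor for such levels in droplet data. With each cell thinned to 1000 UMIs, 67.6% of D2 neurons, 61.3% of D1 neurons and 7.96% of oligodendrocytes, which serve as the background type, held a Foxp1 UMI. Before thinning these shares were 91.2%, 89.4% and 15.9%, at median depths of 3340, 3810.5 and 1897 UMIs. Isl1 was found in 0.389% of thinned D2 neurons, 8.40% of D1 neurons and 0.440% of oligodendrocytes, so its D2 share was at background. Sp9 was found in 7.01% of thinned D2 neurons, 0.624% of D1 neurons and 0.560% of oligodendrocytes, and Ebf1 in 0.260% of D2 neurons, 5.13% of D1 neurons and 0.200% of oligodendrocytes. Tshz1 was closer to the background type, in 7.30% of thinned D2 neurons, 7.86% of D1 neurons and 4.08% of oligodendrocytes. The shallow cells left out by thinning were 114 D2, 95 D1 and 319 oligodendrocytes.

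Medium spiny neurons, D2 and D1 together, carried more of 8 members and less of Sp9 than the 482 interneurons of the same pools. In edgeR's quasi-likelihood test, with pool as a block and Benjamini-Hochberg adjustment over all genes, 3016 of 11198 genes were higher in medium spiny neurons (26.9%) and 2962 lower (26.5%), 53.4% in all, so a call here is common. The members' median log2 fold change was 2.94, against 0.02 over all genes tested. Zfp503 had a log2 fold change of 3.61 (SE 0.26), Foxp1 of 3.59 (SE 0.11), Foxp2 of 3.55 (SE 0.17), Ebf1 of 3.54 (SE 0.34) and Meis2 of 3.43 (SE 0.12), with adjusted p-values of 9.58e-11 or less. Foxp1 ranged over 899, 1034 and 1406 CPM in medium spiny neurons (lowest, median and highest pool), against 56.9, 95.7 and 146 CPM in interneurons. The 2 ranges did not overlap, and the same held for Bcl11b, Meis2, Foxp2, Rarb, Ebf1, Tshz1 and Zfp503. Over all genes tested the pools of medium spiny neurons lay wholly above those of interneurons for 8.15% and wholly below for 8.8%.

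Sp9 was lower in medium spiny neurons in all 8 pools. It ranged over 27.7, 36.1 and 49.6 CPM there, against 37.8, 69.2 and 137 CPM in interneurons. The log2 fold change was -1.09 (SE 0.15, adjusted p 3.08e-07), and the ranges overlapped at their edges. Isl1 did not differ in the test, at 50.7 ± 5.52 CPM in medium spiny neurons and 50.4 ± 30.9 CPM in interneurons (log2 fold change 0.11, SE 0.20, adjusted p 0.669). Within the interneurons Isl1 averaged 6.00 CPM in the Sst- and Npy-gated and 3.75 CPM in the Pthlh-, Kit- and Pvalb-gated cells. It averaged 366 CPM in the Chat- and Slc5a7-gated ones of morphine pool 2 and mock pool 3, which held 13 and 14 of the 55. With the stricter gate Isl1 was called lower in medium spiny neurons, at -0.50 (adjusted p 0.0322).

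D2 and D1 neurons differed in 9 of the 10 members. The test, again with pool as a block, called 475 of 11237 genes higher in D2 (4.23%) and 451 lower (4.01%), 8.24% in all, with a median log2 fold change of 0.01 over all genes and -0.07 over the members. For 4 members, 1 above and 3 below, the ranges of the 2 types did not overlap, as the plot of both types by pool shows. Over all genes tested the D2 range lay wholly above the D1 range for 0.276% and wholly below for 0.409%. Isl1 had 2.94, 4.34 and 13.0 CPM in D2 neurons (lowest, median and highest pool), against 74.7, 91.7 and 107 CPM in D1 neurons. Ebf1 had 0, 1.49 and 5.88 CPM in D2, against 24.0, 60.6 and 73.8 CPM in D1. Sp9 ran the other way, with 60.1, 72.8 and 99.0 CPM in D2, against 2.27, 4.76 and 6.23 CPM in D1. The log2 fold change was -4.18 for Isl1 (SE 0.14, adjusted p 2.98e-38), -4.43 for Ebf1 (SE 0.18, adjusted p 1.95e-32) and 3.84 for Sp9 (SE 0.13, adjusted p 6.07e-37). In the type where each was low, its level lay near that of oligodendrocytes, at 4.96 CPM for Isl1, 2.42 CPM for Ebf1 and 5.38 CPM for Sp9.

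Foxp2 was lower in D2 neurons but above the 19.4 CPM of oligodendrocytes. It had 35.7, 75.1 and 97.5 CPM in D2 neurons, against 207, 244 and 372 CPM in D1 neurons. The groups did not overlap, and the log2 fold change was -1.78 (SE 0.07, adjusted p 7.00e-34). Its paralogue Foxp1 leaned the other way by a smaller amount, higher in D2 in 8 of 8 pools, with a log2 fold change of 0.33 (SE 0.03, adjusted p 2.18e-16). Meis2 was higher in D2 in 7 of 8 pools, by 0.20 (SE 0.03, adjusted p 2.23e-06), and Zfp503 lower in 8 of 8 pools, by -0.34 (SE 0.09, adjusted p 4.79e-03). For Foxp1, Meis2 and Zfp503 the ranges of the 2 types overlapped, so the difference shows within a pool and not between pools. Without the block Foxp1, Meis2 and Zfp503 were not called, with adjusted p-values of 0.265, 0.835 and 0.565. The Zfp503 call was also lost under DESeq2 (0.0822) and in mock pools alone (0.239). The neuroblast marker list stood higher in D2 than in D1 neurons of every pool, at 22.8 to 50.8 CPM against 13.9 to 34.1 CPM. Meis2 was highest in neuroblasts, and the part of this in its D2 and D1 levels was not tested.

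The other 3 members were close to even. Tshz1 was lower in D2 in 7 of 8 pools (log2 fold change -0.22, SE 0.07, adjusted p 0.0388) and Bcl11b higher in 7 of 8 (0.09, SE 0.03, adjusted p 0.0469). Rarb was not called, at 0.09 (SE 0.05, adjusted p 0.327) and higher in D2 in 6 of 8 pools. The Bcl11b call was lost without mock pool 1, 2, 3 or 4 or morphine pool 3 or 4 (adjusted p 0.0895, 0.163, 0.0811, 0.0791, 0.178 and 0.0579), under DESeq2 (0.268) and with library size scaling (0.342). The Tshz1 call was lost without mock pool 2 or morphine pool 1, 2, 3 or 4 (adjusted p 0.0806, 0.0694, 0.0533, 0.148 and 0.169), under DESeq2 (0.271) and with the stricter gate (0.356). In mock pools alone neither Bcl11b nor Tshz1 was called (0.116 and 0.747). Both calls were also lost with no filter on low counts (0.0899 and 0.0546) and without the block.

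**Figure D2:**
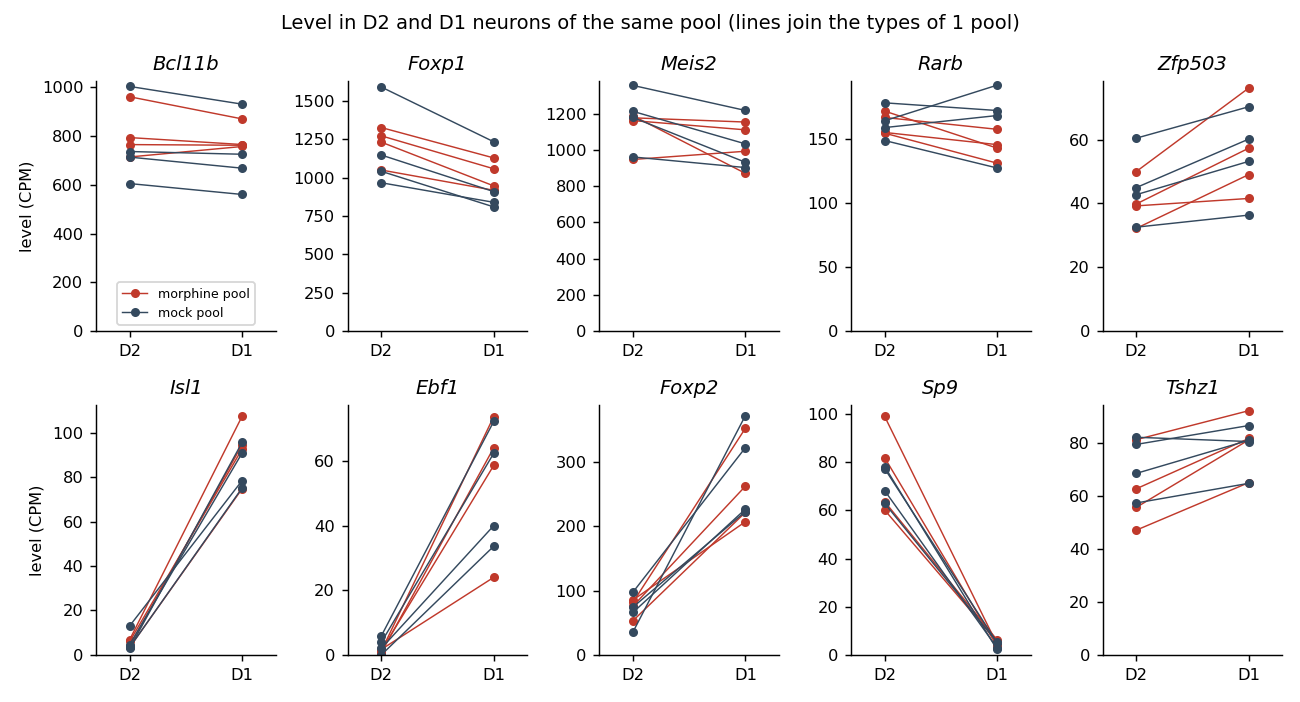
Level (CPM) of each member in D2 and D1 neurons, with a line joining both types of 1 pool, morphine pools in red and mock pools in dark blue. Isl1, Ebf1 and Foxp2 climb to D1 in all 8 pools, Sp9 drops in all 8, and the ranges of both types overlap for the other members.

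A subset of D1 neurons was gated by at least 2 of the genes Lypd1, Otof, Cacng5, Pcdh8, Casz1 and Col11a1, and set against D1 neurons with none of them. The 301 Lypd1-gated cells (10 to 87 a pool, median 5530 UMIs) were deeper than the 2190 others (median 3322 UMIs). Of 9148 genes, 153 were higher in the Lypd1-gated cells (1.67%) and 247 lower (2.7%), 4.37% in all, and of the 10 members 3 were higher and 4 lower. The members' median log2 fold change was -0.12, against -0.02 over all genes. Tshz1 had 88.2, 163 and 499 CPM in Lypd1-gated cells (lowest, median and highest pool), against 47.8, 61.2 and 95.2 CPM in the others. Only the lowest Lypd1-gated pool lay inside the range of the others, and the log2 fold change was 1.50 (SE 0.14, adjusted p 2.87e-25, higher in 7 of 8 pools). Foxp2 had 229, 434 and 790 CPM in Lypd1-gated cells, against 198, 235 and 339 CPM in the others, and was higher by 0.85 (SE 0.09, adjusted p 3.60e-17, higher in 7 of 8 pools). The lists and gate thresholds were chosen with earlier results of these data known. The Tshz1 and Foxp2 calls therefore describe the gated cells and are no independent test.

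Sp9 was the third to be higher (log2 fold change 2.56, SE 0.47, adjusted p 4.51e-06), from 42 UMIs in the Lypd1-gated cells and 30 in the others. It had 0, 15.97 and 41.7 CPM in Lypd1-gated cells, against 0, 2.77 and 6.77 CPM in the others, and was higher in 5 of 8 pools. The D2 marker list moved with it, at 469 CPM against 198 CPM, with Penk at 395 CPM against 174 CPM and Gpr6 at 60.7 CPM against 17.2 CPM, and all 4 of its genes were detected in both. The neuroblast list stood at 21.1 CPM against 18.4 CPM, with 5 of 5 genes detected in both. The part of either in the Sp9 value was not tested.

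Ebf1 was lower in Lypd1-gated cells in 7 of 8 pools, at 31.3 ± 41.5 CPM against 65.8 ± 17.6 CPM (log2 fold change -1.25, SE 0.23, adjusted p 6.01e-06). Foxp1 was lower in 8 of 8 pools, at 732 ± 94.0 CPM against 1033 ± 155 CPM (-0.58, SE 0.08, adjusted p 1.23e-10). Bcl11b at -0.31 (SE 0.08, adjusted p 6.45e-03) and Isl1 at -0.52 (SE 0.17, adjusted p 0.0450) were also lower, each in 7 of 8 pools. In cells of at least 3000 UMIs, which left 5 pools, the calls of Tshz1, Foxp2, Sp9, Ebf1 and Foxp1 held (1.31, 0.80, 2.95, -1.16 and -0.48). Those of Bcl11b and Isl1 did not (-0.14 and -0.38, adjusted p 0.588 and 0.364). Over all pools the median depth of such cells was 6342 UMIs if Lypd1-gated and 4947.5 UMIs in the others, so depth stayed unequal. The Isl1 call was lost on leaving out mock pool 1, 2, 3 or 4 or morphine pool 2, 3 or 4 (adjusted p 0.109, 0.108, 0.102, 0.0591, 0.151, 0.139 and 0.0818), and that of Bcl11b without morphine pool 2 or 3 (0.142 and 0.0702). Of 16 alternatives, 8 called Bcl11b and 1 called Isl1. Both were lost under DESeq2 (0.283 and 0.205), with the stricter gate (0.370 and 0.921) and without patch-gated cells (0.0696 and 0.422). In mock pools alone Bcl11b, Isl1 and Sp9 were not called (0.835, 0.457 and 0.0650). Meis2, Rarb and Zfp503 were not called, at 0.07, -0.03 and -0.21.

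Patch neurons were gated by at least 1 UMI of Oprm1, Kremen1 or Sema5b and a rate of the matrix genes Id4, Epha4, Sv2b and Gda below the median, and matrix neurons by no such UMI and a rate at or above it. The 332 patch-gated cells (61.7% D1) and 3181 matrix-gated cells (50.6% D1) differed in 163 of 9215 genes higher in patch (1.77%) and 251 lower (2.72%), 4.49% in all. Their median depths were 4842 and 3488 UMIs. Of the 10 members 2 were higher and 1 lower, with a median log2 fold change of -0.02 over the members and -0.01 over all genes. Tshz1 had 83.4, 117 and 190 CPM in patch-gated cells (lowest, median and highest pool), against 30.6, 63.1 and 83.3 CPM in matrix-gated cells. It was higher in 8 of 8 pools with no overlap of the 2 ranges (log2 fold change 0.87, SE 0.14, adjusted p 4.12e-07), against 0.141% of all genes wholly above and 0.141% wholly below. Foxp2 had 144, 248 and 360 CPM in patch-gated cells, against 140, 161 and 239 CPM in matrix-gated cells, and was higher in 7 of 8 pools by 0.60 (SE 0.10, adjusted p 4.64e-07). Ebf1 had 0, 14.0 and 39.0 CPM in patch-gated cells, against 18.6, 37.01 and 48.8 CPM in matrix-gated cells, and was lower in 7 of 8 pools by -1.19 (SE 0.28, adjusted p 1.54e-03).

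The patch gate leaned to D1 neurons, so the comparison was repeated within each type. Within D1 neurons Tshz1 averaged 173 ± 77.0 CPM in patch-gated cells (SD, n = 7 pools) and 62.2 ± 15.7 CPM in matrix-gated cells (SD, n = 8 pools), and Tshz1 (1.16), Foxp2 (0.48) and Ebf1 (-1.27) were again called. Within D2 neurons Foxp2 was called at 0.80 (adjusted p 0.0248) and Tshz1 was not, at 0.23 (adjusted p 0.834). Of the 205 patch-gated D1 cells 43 were also Lypd1-gated (21.0%), as were 93 of the 1611 matrix-gated D1 cells (5.77%). Without Lypd1-gated cells the patch difference was 0.63 for Tshz1 and 0.38 for Foxp2, both still called. Among cells of at least 3000 UMIs, in 7 pools, Tshz1 (0.93), Foxp2 (0.61) and Ebf1 (-1.28) were again called. Over all pools the median depth of such cells was 6226 UMIs in patch-gated and 5082.5 UMIs in matrix-gated cells, so depth stayed unequal. With the stricter gate, which left 6 pools, only Foxp2 was called, and Tshz1 stood at 0.55 (adjusted p 0.125). In mock pools alone Foxp2 and Ebf1 were not called (adjusted p 0.0631 and 0.0787). The Ebf1 call was also lost without the block (0.106), and DESeq2 gave Ebf1 no adjusted p.

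**Figure D3:**
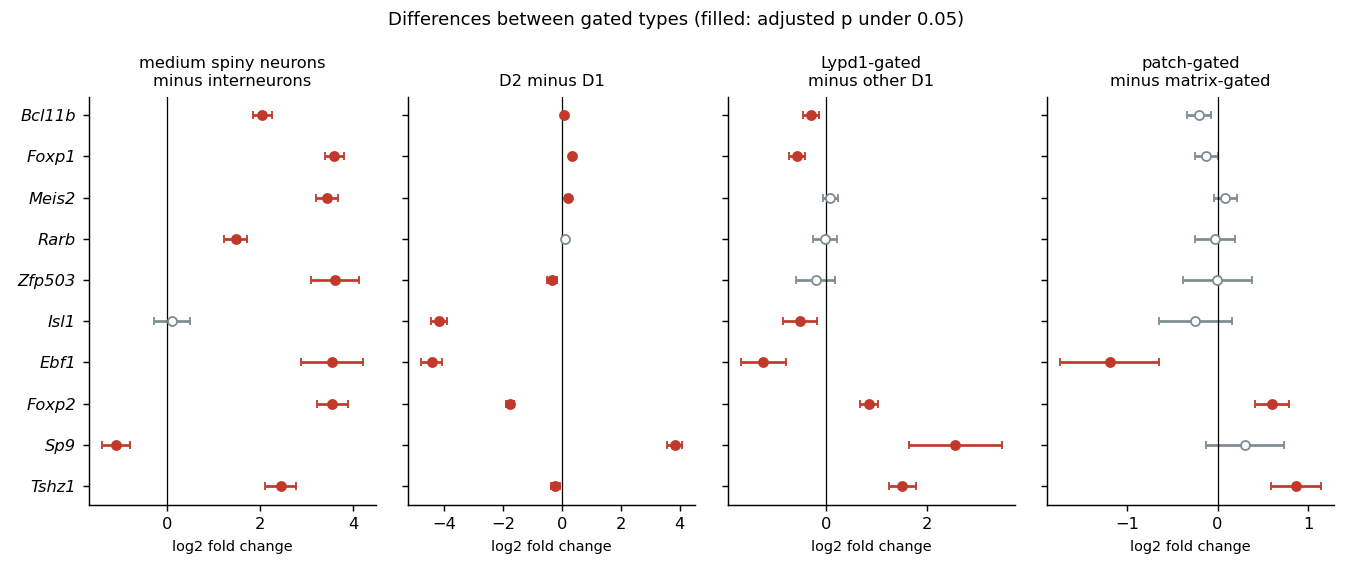
Log2 fold change of each member in 4 comparisons between gated types, with bars of 95% intervals and filled red points where the adjusted p was under 0.05. Isl1, Ebf1 and Sp9 lie farthest from 0 between D2 and D1 neurons, while Tshz1 and Foxp2 lie to the right and Ebf1 to the left in both subtype comparisons.

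No member passed the threshold between morphine and mock pools in D2 or in D1 neurons. Of 9985 genes tested in D2 neurons 0 were called (0.0%, with 284 or 2.84% at an unadjusted p under 0.05 and 1 called by DESeq2), and 8 members passed the filter on low counts, Isl1 and Ebf1 failing it. Of 10413 genes tested in D1 neurons 0 were called (0.0%, with 276 or 2.65% at an unadjusted p under 0.05 and 1 called by DESeq2), and 9 members passed the filter, Sp9 failing it. No member had an unadjusted p under 0.05 in either type, and morphine and mock pools overlapped for each one tested. Over all genes the morphine pools lay wholly above the mock pools for 0.751% and wholly below for 1.71% in D2 neurons, and for 0.567% and 1.9% in D1 neurons. In D2 neurons the median log2 fold change was 0.07 over the 8 members and -0.01 over all genes. In D1 neurons it was 0.09 over the 9 members and 0.00 over all genes.

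The members that set D2 and D1 neurons apart are given pool by pool. Isl1 in D1 neurons had 92.6, 107, 94.5 and 74.7 CPM in morphine pools 1 to 4, against 78.4, 95.6, 90.8 and 75.1 CPM in mock pools 1 to 4. The highest and the lowest of the 8 were both morphine pools, and the log2 fold change was 0.18 (SE 0.15, adjusted p 1.00). Ebf1 in D1 neurons had 73.8, 24.0, 64.2 and 58.7 CPM after morphine, against 62.5, 72.4, 33.7 and 40.1 CPM after mock. Each group held 1 or 2 low pools, and the log2 fold change of 0.11 (SE 0.30) has a 95% interval reaching 0.70.

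Sp9 in D2 neurons had 99.0, 63.6, 81.9 and 60.1 CPM in morphine pools, against 78.2, 77.3, 68.2 and 63.0 CPM in mock pools. The morphine values bracketed the mock ones (log2 fold change 0.12, SE 0.18). Foxp2 in D1 neurons had 222, 352, 262 and 207 CPM after morphine, against 223, 322, 372 and 227 CPM after mock, with morphine pool 2 and mock pools 2 and 3 the highest (-0.06, SE 0.19).

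The members at like levels in both types also overlapped between the groups. Bcl11b in D1 neurons had 762, 757, 870 and 765 CPM in morphine pools, against 560, 930, 668 and 725 CPM in mock pools, a log2 fold change of 0.19 (SE 0.15), the largest among the 9. Foxp1 in D2 neurons averaged 1220 ± 120 CPM after morphine and 1187 ± 279 CPM after mock (SD, n = 4 each; 0.10, SE 0.16). Meis2 in D2 neurons averaged 1118 ± 115 CPM after morphine and 1176 ± 163 CPM after mock (-0.02, SE 0.14). Rarb in D1 neurons averaged 144 ± 10.8 CPM after morphine and 165 ± 27.1 CPM after mock (-0.13, SE 0.15). The remaining values ran between -0.16, for Tshz1 in D2 neurons, and 0.16, for Foxp1 in D1 neurons.

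**Figure D4:**
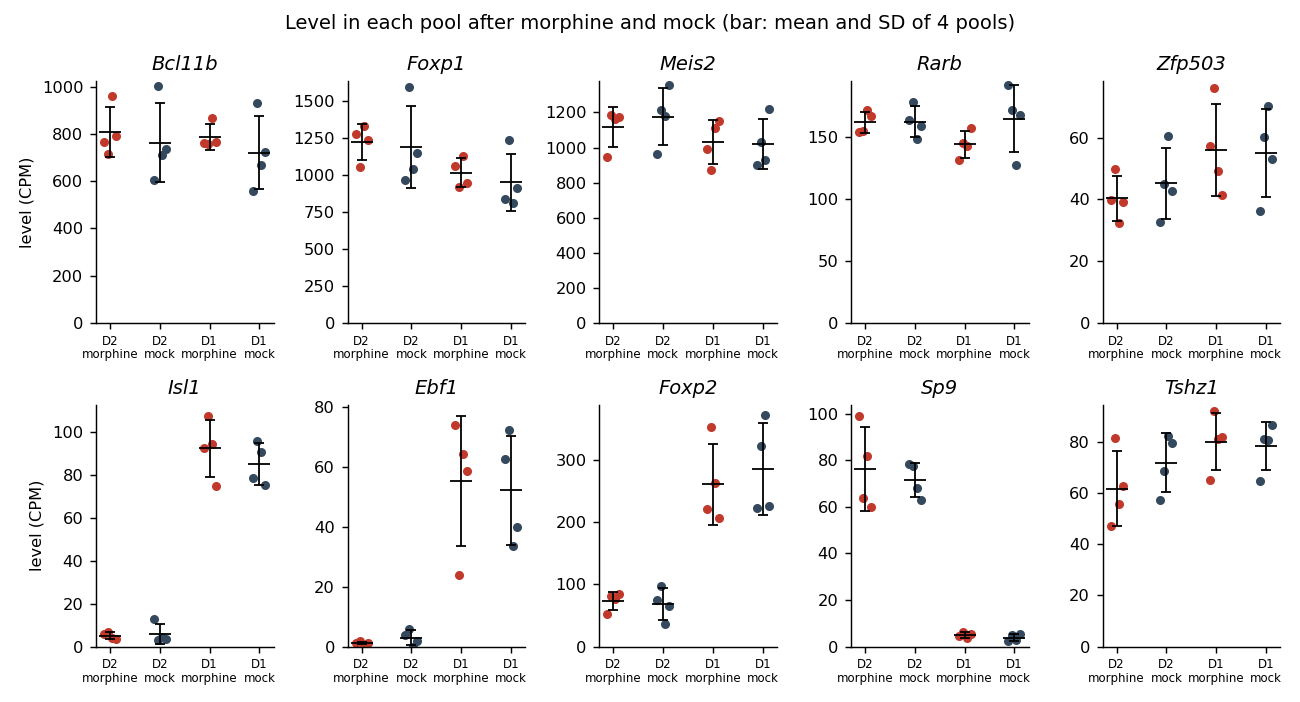
Level (CPM) of each member in D2 and D1 neurons of the 4 morphine pools (red) and the 4 mock pools (dark blue), with the mean and SD of each group in black. The points of both groups overlap in every panel for each type, while Isl1, Ebf1, Foxp2 and Sp9 separate D2 from D1.

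Normal 95% intervals around the members' log2 fold changes reached at most -0.51 and 0.58 in D2 neurons and -0.49 and 0.70 in D1 neurons.

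In Lypd1-gated D1 neurons 2 of 3337 genes were higher after morphine (0.0599%) and 0 lower, with 75 or 2.25% at an unadjusted p under 0.05, and 0 of the 6 members tested were called. Rarb had 101, 142, 97.0 and 134 CPM in morphine pools, against 250, 164, 156 and 179 CPM in mock pools. All morphine pools lay below all mock pools, as in 1.56% of the genes tested, while 0.839% lay the other way, with a log2 fold change of -0.43 (SE 0.26, adjusted p 1.00, unadjusted p 0.103). Morphine pools 1 and 3 and mock pool 1 held 12, 14 and 10 such cells, so these are small sums. Bcl11b, Foxp1, Foxp2, Meis2 and Tshz1 ranged between -0.17 and 0.21.

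In interneurons 0 of 6417 genes were called (0.0%, with 171 or 2.66% at an unadjusted p under 0.05 and 0 by DESeq2), nor was any of the 6 members tested. Pools lay wholly apart for 0 of the 6, against 0.655% of all genes with morphine above and 1.32% with morphine below. Isl1 had 69.6, 84.6, 47.7 and 50.8 CPM in morphine pools, against 28.7, 11.9, 94.6 and 15.3 CPM in mock pools, with a log2 fold change of 0.77 (SE 0.44, unadjusted p 0.0930). Mock pool 3 lay above all morphine pools and the other 3 mock pools below them. Chat- and Slc5a7-gated cells made up 4, 13, 6 and 8 of the 36, 112, 45 and 78 interneurons in morphine pools. In mock pools they made up 2, 4, 14 and 4 of 22, 53, 61 and 75. Their part in the Isl1 value was not tested. Sp9 averaged 87.9 ± 36.0 CPM after morphine and 66.6 ± 31.5 CPM after mock (0.52, SE 0.32, unadjusted p 0.120).

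Whether the morphine difference itself differed between D2 and D1 neurons was tested with a type by treatment term. None of 11237 genes was higher and 2 were lower (0.0178%), with 501 or 4.46% at an unadjusted p under 0.05, and 0 of the 10 members were called. Ebf1 had the smallest unadjusted p, 0.0172 (log2 difference -1.37, SE 0.56, adjusted p 0.999). It rests on D2 levels of 1.21, 1.70, 0.671 and 1.28 CPM in morphine pools, against 3.91, 5.88, 0 and 2.02 CPM in mock pools, which are at the background level. DESeq2 called 0 genes here.

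**Figure D5:**
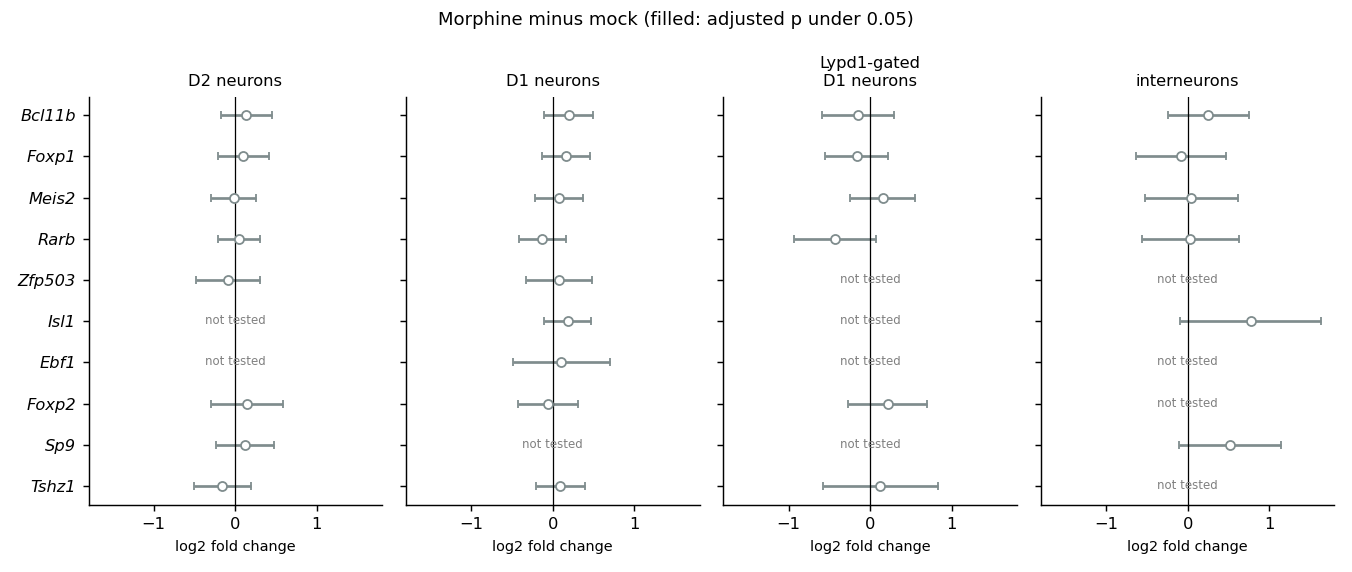
Log2 fold change of morphine over mock for each member tested in D2, D1 and Lypd1-gated D1 neurons and interneurons, with bars of 95% intervals. All points are open, meaning that no adjusted p was under 0.05, and every bar reaches across 0.

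No member passed the threshold between the ages. The pools numbered 1 in both groups are younger and use another annotation, so this comparison mixes age with annotation in part. Between older and younger pools 0 of 10720 genes were called in D1 neurons (0.0%, 1299 or 12.1% at an unadjusted p under 0.05, 18 by DESeq2) and 0 of 10285 in D2 neurons (0.0%, 1286 or 12.5% and 24), with 10 and 8 members tested. The smallest unadjusted p among the members was that of Meis2, in both types. In D1 neurons Meis2 averaged 1103 ± 122 CPM in older and 949 ± 75.9 CPM in younger pools (log2 fold change 0.27, SE 0.13, adjusted p 0.436). In D2 neurons it averaged 1217 ± 91.9 CPM in older and 1077 ± 143 CPM in younger pools (0.22, SE 0.13, adjusted p 0.494). The other members ranged between -0.17 and 0.16.

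Among themselves the members fell into several patterns across the 18 types. Pearson's r of log levels over the types, given as a description of sums that share libraries, was 0.87 between Foxp2 and Meis2, 0.82 between Bcl11b and Rarb, 0.75 between Foxp1 and Zfp503 and 0.72 between Bcl11b and Foxp1. The lowest was -0.28, between Ebf1 and Sp9. Of 9052 genes compared, those most like Bcl11b were Cdk17 (r 0.94), Kcnj4 (0.93) and Lzts3 (0.93), and those most like Rarb were Kctd8 (0.95), Dach1 (0.92) and Reln (0.87). Foxp1 came closest to Lmo7 (0.93), Pde7b (0.92) and Arpp19 (0.91), and Zfp503 to Pde7b (0.85), Ido1 (0.83) and Cbr3 (0.81). Sp9 came closest to Dlx1 (0.86), Dlx5 (0.85) and Dlx6os1 (0.85), all highest in neuroblasts. Isl1 came closest to Gm27031 (0.80), Slc10a4 (0.77) and Serpinf1 (0.76), highest in Chat- and Slc5a7-gated cells. Ebf1 came closest to 3 genes highest in mural or endothelial cells, Ehd2, Hrct1 and Myl6 (0.87, 0.87 and 0.86). Meis2 was nearest to Akap9, Txlng and Lin7c (0.86 each), Tshz1 to Phf21a (0.88), Rrnad1 (0.88) and Nipbl (0.87), and Foxp2 to Tmem158 (0.84), Ankrd63 (0.83) and Elk1 (0.83).

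Around the members, 38 other striatal and forebrain transcription factors and partners were counted in the same fits. Between D2 and D1 neurons 26 were tested, of which 6 were higher in D2 and 4 lower, with a median of 0.05. The 8 with the smallest p were Tshz2 (-0.91), Zfhx3 (0.42), Pbx3 (-0.35), Lmo4 (-0.15), Dlx2 (1.17), Six3 (0.22), Dlx1 (0.72) and Rxrg (-0.22), all called. Dlx2 is in the neuroblast list that the gates used, so its call, counted above, is no result. Under DESeq2 the calls of Dlx2, Dlx1, Six3 and Rxrg were lost (adjusted p 0.0515, 0.0974, 0.0836 and 0.199). In mock pools alone those of Dlx2, Dlx1 and Rxrg were lost (0.433, 0.172 and 0.440). The Rxrg call was lost without mock pool 4 or morphine pool 2 or 4 (adjusted p 0.117, 0.124 and 0.0538). Between medium spiny neurons and interneurons 29 were tested, 14 higher and 10 lower. Lhx8 (-6.31), Nfib (-3.13), Dlx1 (-3.14) and Tshz2 (-2.35) were lower in medium spiny neurons, as was Lhx6 (-6.99), which the interneuron gate used and which is therefore no result, and Rxrg (3.24), which encodes a partner of retinoic acid receptors, Six3 (3.23) and Lmo4 (1.61) were higher.

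In Lypd1-gated D1 neurons 3 of 20 list genes were higher and 3 lower. Rxrg (1.18) and Lmo4 (0.27) were among the higher ones, and Mef2c (-0.55), Lmo3 (-0.50) and Zfhx3 (-1.07) lower. The Lmo4 call was lost without mock pool 2 or 3 or morphine pool 3 or 4 (adjusted p 0.0981, 0.197, 0.179 and 0.0920). In patch-gated neurons 2 of 19 were higher, Rxrg (1.26) and Nr4a1 (0.80), and 2 lower, Mef2c (-0.50) and Zfhx3 (-0.75), while Dlx5 (0.41) and Meis1 (-0.84) were not called. The Zfhx3 call there was lost without mock pool 4 (adjusted p 0.0724).

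After morphine 1 list gene was called in any type. Nr4a1, an immediate early gene of the nuclear receptor family, was higher in Lypd1-gated D1 neurons by 1.98 (SE 0.41, adjusted p 0.0391, 1 of 11 tested). The call was lost without mock pool 1 or 4 or morphine pool 3 (adjusted p 0.0852, 0.645 and 0.189), under DESeq2 (0.342), with library size scaling (0.0538) and with the stricter gate, which left 4 pools (0.999). Next in that fit came Pbx3 (0.70), Lmo4 (-0.32), Rxrg (0.34) and Mef2c (-0.25). In D2 neurons 0 of 23 were called, the smallest p-values being those of Ldb2 (-0.36), Ldb1 (0.30), Six3 (-0.17), Nr4a1 (0.35), Dlx6 (0.18) and Lmo4 (-0.18). In D1 neurons 0 of 22 were called, led by Lmo4 (-0.34), Nr4a1 (0.84), Meis3 (0.34), Ldb2 (-0.29), Six3 (0.26) and Ldb1 (0.25). In the difference of the morphine response between D2 and D1 neurons 0 of 26 were called, led by Nr4a1 (-0.66, adjusted p 0.461), Six3 (-0.34), Lmo4 (0.16), Dlx6 (0.21), Foxp4 (0.95) and Ikzf2 (1.31). Between older and younger pools 0 of 23 were called in each type. In D2 neurons these were led by Ldb2 (0.43), Rxrb (-0.36), Meis1 (-0.65), Nfia (-0.52), Rxra (-0.54) and Meis3 (0.24), and in D1 neurons by Meis1 (-0.66), Ldb2 (0.33), Dlx1 (0.91), Rxrb (-0.36), Foxp4 (-0.60) and Bcl11a (0.23). In interneurons 0 of 16 were called after morphine, with Lhx6 (0.31), Meis3 (-0.46), Tshz3 (-0.39), Mef2c (-0.27) and Ldb1 (0.30).

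The members lie on 7 chromosomes in GRCm38, per GENCODE vM21. Isl1 spans chr13:116298281-116309689, Ebf1 chr11:44617317-45008091, Sp9 chr2:73271925-73284706 and Rarb chr14:16430839-16819156. Exons of Rarb overlap Top2b, and those of Sp9 overlap Cir1, on the opposite strand, and exons of Foxp1 overlap 2 predicted genes on its own strand. Whether the counting used strand is not given in the sources used here, so the counts do not show how reads from such overlapping exons were assigned. The other 7 members overlap no other gene's exons.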

How the data were processed

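For each gene and barcode the submitters deposited unnormalized UMI counts in 8 nucleus accumbens pools. The submitters' processing notes name Trimmomatic 0.36, STAR 2.4.2a, HTSeq, DESeq2, DESeq and the build mm10, without giving their roles. Tables of sorted oligodendrocytes in the series were not used here. The replicate 1 tables use another annotation, so 1234 older symbols were renamed and 20856 symbols kept. Cells were typed by marker genes, counts were summed per pool and type where at least 10 cells were found, and edgeR 4.0.16 in R 4.3.3 tested the sums (quasi-likelihood test, TMM scaling, filterByExpr, Benjamini-Hochberg adjustment, threshold 0.05). Comparisons between types used pool as a block, and those between treatments did not. After filtering pools held 6761888 to 24163551 UMIs. DESeq2 1.42.0, library size scaling, no filter, a stricter gate, leaving out pools and subsets of cells were alternatives. A CPM is a UMI per 1000000 of the sum. No doublet caller was run.

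All 10 members were named in every comparison, and of a list of 38 other factors the 6 with the smallest p, or up to 8 where more passed, except for 1 gene of the list that is not reported here. For likeness the 3 genes with the highest Pearson correlation were named. The members, lists and gate thresholds were chosen with earlier results of these data known. Promoters were searched for 6 motifs. The edgeR test was tried on simulated counts for morphine against mock in D1 neurons and for D2 against D1 neurons. Each pool mixed 2 mice. Pools of the same number share an age range in the labels, which do not say that they share a litter, batch or day. With 4 pools a group, p-values between treatments or ages measure the spread between pools. Those between types, and of the type by treatment term, measure the spread of the differences within pools.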

Additional observations from a re-analysis of the deposited data

Results flagged for a closer look

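In 3 of 70 sets of 4 pools, 1 pool stood far from the other 3 by Dixon's criterion for 4 values, and chance alone flags about 1 set in 20. Bcl11b in D1 neurons stood at 869.6 CPM in morphine pool 3, against 756.5 to 764.6 CPM in the other morphine pools. Meis2 in D2 neurons stood at 946.6 CPM in morphine pool 1, against 1160.9 to 1187.5 CPM in the other morphine pools. Isl1 in D2 neurons stood at 13.0 CPM in mock pool 1, against 2.94 to 4.65 CPM in the other mock pools. The cause of these values was not tested.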

How the results depend on the processing

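Of the members called, D2 against D1 had 9, and 4 without the replicate block. Lypd1-gated against other D1 neurons had 7, and 4 with the stricter gate, 4 without the replicate block and 4 in mock pools alone. Patch against matrix had 3, and 1 with the stricter gate, 1 in mock pools alone and 1 in D2 neurons alone. Leaving out 1 pool at a time gave 7 to 8, 5 to 7 and 3 to 4, 9 for medium spiny neurons against interneurons, and 0 for morphine and for age. Other counts of genes called that moved by over 1.5 times were, for D2 against D1 (926), 455 by DESeq2, 470 in mock pools alone, 561 with the stricter gate and 131 without the block. For Lypd1-gated cells (400) they were 230, 156, 121 and 125, and for patch (414) 225, 102, 192 and 43, with 226 in D1 and 104 in D2 neurons alone. Without mock pool 4 or morphine pool 4 the genes called fell to 239 and 264 for Lypd1-gated cells, and to 271 and 269 for patch. Library size scaling split the D2 against D1 calls into 326 higher and 605 lower, against 475 and 451, and no filter split those of patch into 83 and 349, against 163 and 251, while DESeq2 split those of Lypd1-gated cells into 119 and 111, against 153 and 247. Without a filter, age called 198 genes in D1 and 241 in D2 neurons, where the other annotation of the replicate 1 pools falls on the younger side.

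The following log2 fold changes had the opposite sign to the main value. In no morphine or age fit was a member called. Younger pools alone gave, for morphine in D1 neurons, Foxp1 -0.019, Foxp2 0.12, Meis2 -0.0043, Ebf1 -0.53 and Six3 -0.041, and in D2 neurons Bcl11b -0.073, Foxp1 -0.088, Foxp2 -0.29, Meis2 0.022, Rarb -0.10, Tshz1 0.093 and Zfp503 0.24. Older pools alone gave Rarb 0.062 and Zfp503 -0.34 in D1 neurons. The stricter gate gave Foxp2 -0.020, Rarb -0.0091 and Sp9 -0.047 for morphine in D2 neurons, and Foxp2 -0.65, Meis2 -0.14, Rarb 0.044, Tshz1 -1.09, Rxrg -0.073 and Mef2c 0.51 in Lypd1-gated cells. It also gave Meis2 -0.010 and Rarb -0.056 in interneurons, Isl1 0.51 and Sp9 0.77 for the difference in response, Isl1 -0.50 for medium spiny neurons against interneurons, Zfp503 0.14 for Lypd1-gated cells and 0.19 for patch. For age it gave Foxp2 0.028 in D1 and Bcl11b -0.0054, Foxp1 -0.0010, Rarb -0.074 and Zfp503 -0.094 in D2 neurons. Library size scaling gave Rarb -0.0085 for morphine in D2 neurons, Meis2 -0.0059 and Rarb -0.018 in interneurons, Isl1 0.00052 for the response, Rarb 0.0046 for Lypd1-gated cells and Zfp503 0.0027 for patch. For age it gave Bcl11b -0.0043 and Sp9 -0.042 in D1 and Foxp1 -0.050, Rarb -0.018 and Zfp503 -0.035 in D2 neurons.

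The labels do not say that same-numbered pools are paired, so the main morphine fits had no block. Deviations from the group means of same-numbered pools correlated at 0.46, 0.06, -0.07 and 0.75 in D1 neurons. In D2 neurons they correlated at 0.52, 0.06, -0.02 and 0.72. In both types the pairs numbered 1 and 4 correlated more than any pair of unlike numbers, and the cause was not tested. With the replicate block morphine called 4 genes in D1 neurons, 3 in D2 neurons, 4 in Lypd1-gated cells and 3 in interneurons, 0 of them members, and gave Tshz1 -0.031 in Lypd1-gated cells and Meis2 -0.027 in interneurons. Age as a covariate gave Meis2 -0.031 in interneurons. DESeq2 gave Rarb -0.0028 in interneurons, Rarb 0.0020 for patch and Foxp1 -0.010 for age in D2 neurons, and no filter gave Isl1 0.0011 for the response. Without the replicate block Isl1 was -0.039 for medium spiny neurons against interneurons and Rarb 0.017 for patch. Mock pools alone gave Rarb 0.11 and Zfp503 0.044 for Lypd1-gated cells and Rarb 0.044 and Zfp503 0.25 for patch. Without patch-gated cells Rarb was 0.031 for Lypd1-gated cells. For patch, D2 neurons alone gave Meis2 -5.8e-05, Rarb 0.081 and Zfp503 0.22, leaving out Lypd1-gated cells gave Rarb 0.051 and Zfp503 0.10, cells of at least 3000 UMIs gave Zfp503 0.013, and D1 neurons alone gave Meis1 0.17.

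Leaving out 1 pool at a time gave ranges across 0 as follows. For morphine in Lypd1-gated cells they were Bcl11b -0.32 to 0.0081, Foxp2 -0.031 to 0.45 and Tshz1 -0.39 to 0.63. In D1 neurons they were Ebf1 -0.035 to 0.38, Foxp2 -0.22 to 0.079 and Zfp503 -0.095 to 0.21, and in D2 neurons Foxp2 -0.014 to 0.37, Meis2 -0.11 to 0.080 and Zfp503 -0.19 to 0.039. In interneurons they were Foxp1 -0.27 to 0.17, Meis2 -0.21 to 0.25, Rarb -0.22 to 0.22 and Mef2c -0.54 to 0.31, and for the response Foxp2 -0.10 to 0.30, Isl1 -0.36 to 0.42 and Sp9 -0.45 to 0.056. Isl1 ran over -0.089 to 0.33 for medium spiny neurons against interneurons, Rarb over -0.060 to 0.025 for Lypd1-gated cells, and Rarb over -0.067 to 0.043 and Zfp503 over -0.15 to 0.15 for patch. For age in D1 neurons they were Bcl11b -0.068 to 0.24, Ebf1 -0.57 to 0.061, Foxp1 -0.14 to 0.11, Foxp2 -0.23 to 0.12, Rarb -0.096 to 0.093, Sp9 -0.13 to 0.16 and Zfp503 -0.31 to 0.053, and in D2 neurons Bcl11b -0.0067 to 0.29, Foxp1 -0.10 to 0.19, Foxp2 -0.33 to 0.036, Rarb -0.012 to 0.090 and Zfp503 -0.094 to 0.17. The cause of these sign changes was not tested. Lypd1-gated cells numbered 10 to 87 a pool, and the stricter gate left 4 pools with at least 10 of them, 2 a group, and 6 pools with patch-gated cells.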
